A study of Mus musculus with 12 samples.

Results

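The mitochondrial respiratory chain was followed here through the genes of its nuclear-encoded subunits in bone marrow-derived macrophages (BMDM), macrophages grown in culture from mouse marrow with M-CSF. Genes were taken by symbol, as all those starting with Ndufa, Ndufb, Ndufc, Ndufs, Ndufv, Uqcr, Cox4, Cox5, Cox6, Cox7 or Cox8, together with Sdha, Sdhb, Sdhc and Sdhd. This gave 75 of the 43280 genes in the deposited table. They comprise 7 core subunits, 29 accessory subunits and 7 assembly factors of complex I, 4 subunits of complex II, 8 of complex III and 20 genes listed with complex IV. Ndufa4 and its paralog Ndufa4l2 were listed with complex IV, where the protein works, and Cox7a2l, which helps to join complexes into supercomplexes, was also listed there. The cells came from wild type (wt) or Treml4-/- mice on a C57BL6 background and were either left unstimulated with PBS vehicle (M0) or given lipopolysaccharide (LPS), a component of the bacterial outer membrane, at a dose of 100 ng/ml, which polarized them to the M1 state over 8 h (M1-8h) or 12 h (M1-12h). Each of the 6 conditions had 2 libraries, 12 in all. The labels call them biological replicates without naming animals or cultures, so p-values measure the spread between these libraries only. The labels give no time in culture for the vehicle cells, and 1 set of M0 libraries served as the control for both times.

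The respiratory chain passes electrons from NADH (complex I) and succinate (complex II, which is also a step of the tricarboxylic acid cycle) through ubiquinone, complex III and cytochrome c to oxygen at complex IV, and complexes I, III and IV pump protons that drive ATP synthase. Mitochondrial DNA encodes some core proteins of complexes I, III and IV, while the nucleus encodes the rest, all of complex II and the assembly factors. Macrophages activated with LPS are known for a shift from respiration towards glycolysis and for changed use of succinate and complex I.

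Promoter sequence was examined first, since most of these genes lay on the same side of 0 after LPS and one, Ndufs4, did not. RefSeq start sites on GRCm38.p6 were matched for 60 of the 75 genes, and the 250 bases before each start were searched on both strands for short motifs of known factors. The CCAAT box (CCAAT) was found before 24 of the 60 genes (40.0%). Over all 27025 genes with a RefSeq start site, expressed here or not, the share was 37.5%. The ETS core (CCGGAAG) was found before 9 (15.0% against 7.83%) and the NRF1 core (GCATGCGC) before 6 (10.0% against 2.56%). The CRE (TGACGTCA) was found before 4 (6.67% against 1.77%), the E-box (CACGTG) before 2 (3.33% against 6.86%) and the kappaB motif (GGGANTTTC) before 1, Ndufv3 (1.67% against 1.11%). The NRF1 core overlapped its own other-strand match before Cox6a1, Ndufa11 and Ndufaf4. Matches are letters in a window and were not tested as binding sites. The 3 stretches below are shown because Ndufs4 was the only member called higher after LPS, Ndufs8 had the lowest log2 fold change at 12 h among the core subunits of complex I, and Uqcr11 had the lowest in complex III. Each runs 5′ to 3′ on the gene's own strand, the minus strand in all 3 cases. Capitals mark the motif matches, CCAAT boxes in Ndufs8 and 1 ETS core in Uqcr11, none of which overlap each other, while the whole 250-base window before Ndufs4, of which 164 bases lie in annotated exons of the gene, held none of the 6 motifs. The windows before Ndufb10, Ndufs7 and Uqcrc1, which were called lower after LPS, held none of the 6 motifs either. Only bases outside annotated exons are shown.
Ndufs4, 86 bases at chr13:114388259-114388344: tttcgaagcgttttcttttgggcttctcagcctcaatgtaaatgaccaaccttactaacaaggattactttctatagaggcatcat
Ndufs8, 250 bases at chr19:3912775-3913024: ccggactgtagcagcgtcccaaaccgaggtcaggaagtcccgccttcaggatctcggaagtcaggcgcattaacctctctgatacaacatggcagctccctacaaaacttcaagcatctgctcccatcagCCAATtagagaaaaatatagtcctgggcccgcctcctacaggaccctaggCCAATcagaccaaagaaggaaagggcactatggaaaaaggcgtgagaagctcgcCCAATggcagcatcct
Uqcr11, 241 bases at chr10:80406831-80407071: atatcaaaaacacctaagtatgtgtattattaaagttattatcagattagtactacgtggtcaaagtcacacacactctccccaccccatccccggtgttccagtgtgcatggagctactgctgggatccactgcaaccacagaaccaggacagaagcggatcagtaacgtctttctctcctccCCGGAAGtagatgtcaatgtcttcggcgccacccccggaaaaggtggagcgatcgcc

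Between 48008751 and 58500792 reads per library were counted on genes, so 1 read was worth 0.0171 to 0.0208 CPM, the read count scaled to a common library total. Treml4 had 198 to 663 reads in the 6 wt libraries and 0 in the 6 Treml4-/- libraries. The 7 macrophage markers were all present, with a summed level of 20468 to 27537 CPM at M0 and 9712 to 12895 CPM after LPS, and markers of neutrophils and progenitors summed to 21.6 to 69.8 CPM at M0 and 6.50 to 28.7 CPM after LPS. The other marker lists, for dendritic cells, T and B cells, fibroblasts, mast cells and muscle, summed to 7.59 CPM or less in every library, and of the defining muscle genes Myh4 and Actc1 had no read. The part of these cells in the results was not tested, and in bulk RNA fewer cells of a type and less RNA per cell cannot be told apart.

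One property of the libraries bears on every LPS value below. On the CPM scale, the median log2 fold change of all 12086 genes tested was -0.72 at 8 h and -0.76 at 12 h. Scaling by the median of ratios moved these medians to -0.04 at both times, and quantile normalization to -0.13 and -0.12. A member near the median on the CPM scale therefore changed like most genes. Members are described below by their CPM and then relative to this shift, and "called" means a Benjamini-Hochberg adjusted p under 0.05 in limma with a fold change of at least 1.4 on log2(CPM + 1), on which changes of weakly expressed genes come out too small.

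Of the 75 genes, 69 had at least 1 CPM in at least 2 libraries and were tested. The 6 below this limit were Cox4i2, Cox6a2, Cox7b2, Cox8b, Cox8c and Ndufa4l2, which are complex IV forms of other tissues or states. Of the tested genes, all but Ndufs4 had a negative log2 fold change on the CPM scale at both times. At 8 h, 49 of 69 were called lower and 1 higher, against 59.8% and 17.1% of all genes, and at 12 h 61 were called lower and 1 higher, against 60.3% and 16.3%. The median log2 fold change was -0.67 at 8 h, close to that of all genes, and -0.89 at 12 h, below it. At 8 h 31 members were below the all-gene median and 38 above it, and at 12 h 46 were below and 23 above. With the median of ratios scaling only 6 were called lower and 8 higher at 8 h, and 15 lower and 4 higher at 12 h, and with quantile normalization 20 lower and 4 higher at 8 h and 35 lower and 1 higher at 12 h. With each of these scalings at least 28.2% and 28.9% of all genes were called lower at 8 and 12 h, and at least 16.9% and 16.1% higher. Each count with the median of ratios was a smaller share of the 69. In wt libraries alone 46 were called lower and 1 higher at 8 h, and in Treml4-/- cells alone 54 and 1, with no test of the difference between these counts. The all-gene median was -0.74 in wt and -0.70 in Treml4-/- cells. Shares of all genes called in each genotype are not reported here, so the counts are not compared.

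**Figure D1:**
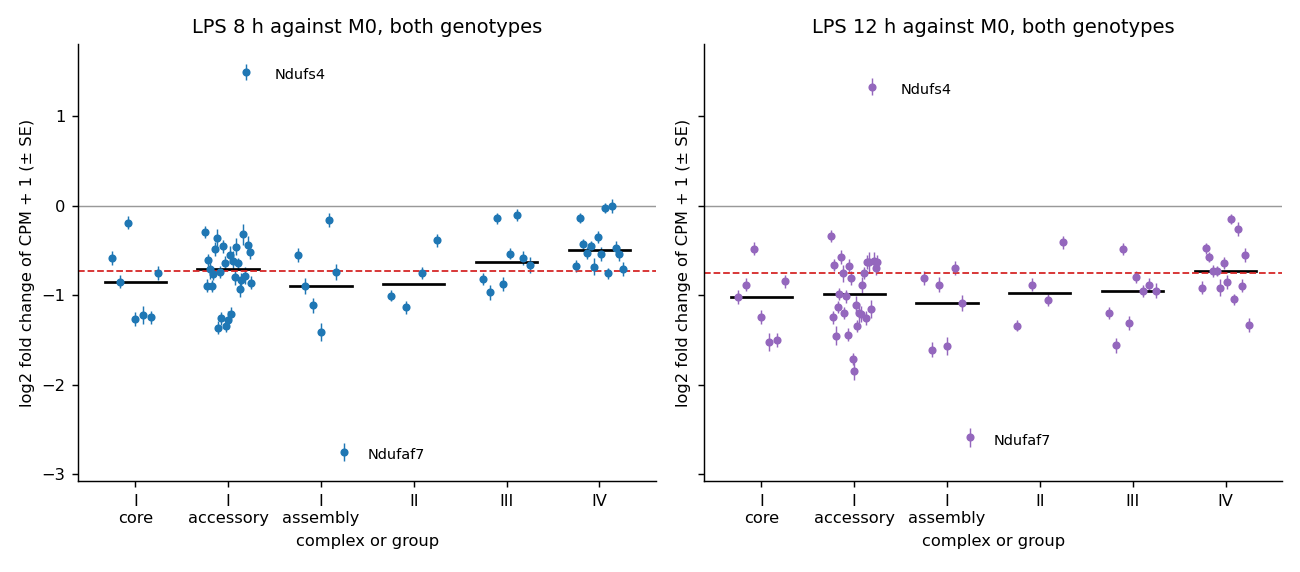
Log2 fold change of CPM + 1 after LPS (y axis, mean over both genotypes, points with SE) for the 69 tested members by complex or group (x axis), at 8 h on the left and 12 h on the right. Black bars are group medians and the red dashed line is the median of all 12086 genes tested (-0.72 and -0.76). Only Ndufs4 lies above 0 at both times. With the median of ratios scaling 8 members at 8 h and 4 at 12 h were called higher, against at least 16.9% and 16.1% of all genes.

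Summed over the 75 genes, the level was 5130 to 5527 CPM in the 4 M0 libraries, 3079 to 3586 CPM in the 4 libraries at 8 h and 2762 to 2879 CPM at 12 h, without overlap between times. These genes took a mean of 0.526% of all reads at M0, 0.333% at 8 h and 0.281% at 12 h. By complex, the summed level at 12 h was 51.2% of that at M0 for the subunits of complex I, 50.7% for complex II, 48.4% for complex III and 59.7% for complex IV. With the median of ratios scaling the same shares were 92.3%, 91.4%, 87.3% and 108%. At 8 h that scaling gave 103%, 96.5%, 113% and 124%, against 59.0%, 55.3%, 65.0% and 71.2% in CPM. The size of the fall thus rested on the scaling. So did its direction, for complex IV at both times and for complexes I and III at 8 h.

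Ratios taken within a library are the same with CPM and with the median of ratios, which apply 1 factor to each library, but not with quantile normalization. The summed level of complex IV over that of complex I subunits was 0.863 to 0.900 at M0, 1.00 to 1.12 at 8 h and 0.987 to 1.06 at 12 h, so both LPS groups stood above M0. For complex III the ratio was 0.390 to 0.407 at M0, 0.419 to 0.461 at 8 h and 0.365 to 0.386 at 12 h, above M0 first and below it later. Complex II gave 0.330 to 0.342 at M0, 0.308 to 0.328 at 8 h and 0.322 to 0.344 at 12 h, where the 12 h range covered that of M0. Complex IV thus kept more of its M0 level than complex I at both times, but with quantile normalization it kept less, 74.9% against 79.7% at 8 h and 67.5% against 72.4% at 12 h, and complex III kept less than complex I at 8 h too (75.8%). These ratios are sums over different genes and are given as a description.

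**Figure D2:**
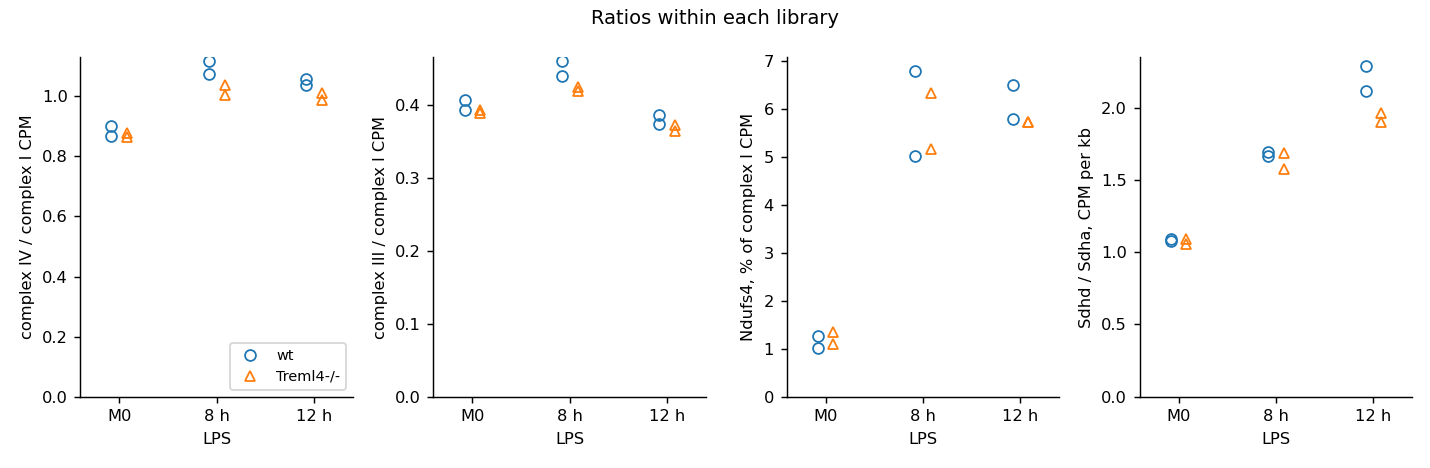
Ratios within each of the 12 libraries (y axes: complex IV over complex I subunits and complex III over complex I subunits in summed CPM, Ndufs4 as percent of complex I subunit CPM, and Sdhd over Sdha in CPM per kb) at M0, 8 h and 12 h of LPS (x axis), with circles for wt and triangles for Treml4-/-. The 4 M0 libraries sit apart from the 8 LPS libraries in every panel but that of complex III, and the ratios are the same with the median of ratios scaling, while with quantile normalization complex IV kept less of its M0 level than complex I (74.9% against 79.7% at 8 h).

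Complex I core subunits carry the flavin and iron-sulfur centres that take electrons from NADH. Of 7, 6 were called lower at 8 h and 6 at 12 h and none higher, against 59.8% and 60.3% of all genes called lower. Their medians were -0.85 and -1.02, while the median of ratios scaling called 1 lower and 1 higher at 8 h and 2 lower at 12 h. Ndufs8, a subunit that holds iron-sulfur clusters, had 59.5 and 59.9 CPM in wt and 68.7 and 58.4 CPM in Treml4-/- cells at M0. It had 29.3, 23.1, 28.9 and 22.9 CPM at 8 h and 20.2, 22.1, 19.8 and 20.9 CPM at 12 h, in the same order. All M0 libraries were above all LPS libraries, and the log2 fold change was -1.22 ± 0.10 (SE) at 8 h and -1.52 ± 0.10 at 12 h (limma, adjusted p = 2.2e-07 and 2.7e-08). Ndufv1, which binds NADH and flavin, was at -1.24 ± 0.07 and -1.499 ± 0.073, and Ndufs7, at the end of the iron-sulfur chain, at -1.27 ± 0.075 and -1.24 ± 0.075. Ndufs3 was the one core subunit not called at either time, with 41.5 to 45.2 CPM at M0, 31.3 to 42.0 CPM at 8 h and 27.4 to 35.0 CPM at 12 h. This gene overlaps Kbtbd4 on the other strand (mean 21.2 CPM), and whether counting used strand was not given. The M0 and 8 h ranges of Ndufs3 overlapped, and its log2 fold changes of -0.19 ± 0.07 at 8 h and -0.48 ± 0.07 at 12 h became 0.59 and 0.35 with the median of ratios scaling.

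Accessory subunits surround the core and are needed for its assembly or stability. Of 29, 21 were called lower at 8 h and 27 at 12 h, against 59.8% and 60.3% of all genes. Their medians were -0.70 and -0.98, and Ndufs4 was the 1 called higher at both times. The median of ratios scaling called 3 lower at 8 h and 5 at 12 h, beside 1 and 2 higher. Ndufa6, Ndufb10 and Ndufb11 had the lowest log2 fold changes at 8 h, and Ndufb11, Ndufb10 and Ndufa12 at 12 h. Ndufb11 had 81.8 to 90.5 CPM at M0, 29.9 to 39.5 CPM at 8 h and 20.0 to 24.9 CPM at 12 h, 3 ranges that did not overlap. Its log2 fold change was -1.28 ± 0.10 and -1.84 ± 0.10 (limma, adjusted p = 1.8e-07 and 6.6e-09), or 2.42- and 3.59-fold lower, and it stayed called lower under all 3 scalings. The gene overlaps Rbm10 on the other strand (mean 17.8 CPM), and whether counting used strand was not given in the sources used here. Ndufb10 went from 54.7 to 62.8 CPM at M0 to 20.6 to 23.7 and then 16.1 to 17.9 CPM, and Ndufa6 from 44.0 to 54.2 CPM to 18.0 to 18.7 and then 19.9 to 22.2 CPM.

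Ndufs4 lies on chr13:114287795-114388258 (GRCm38, minus strand) and encodes an accessory subunit of the electron input module whose loss is a known cause of complex I deficiency. It had 24.6 and 19.8 CPM in wt and 23.4 and 26.7 CPM in Treml4-/- cells at M0. At 8 h it had 63.2 and 75.6 CPM in wt and 63.5 and 70.1 CPM in Treml4-/- cells, and at 12 h 58.7 and 66.9 CPM in wt and 58.3 and 58.6 CPM in Treml4-/- cells. Every LPS library of either genotype was above every M0 library. The log2 fold change was 1.49 ± 0.09 at 8 h and 1.33 ± 0.09 at 12 h (limma, adjusted p = 1.8e-08 and 4.8e-08), or 2.82- and 2.51-fold, and it was 2.26 and 2.15 with the median of ratios scaling and 2.13 and 2.05 with quantile normalization. Within complex I the gene went from 1.03 to 1.34% of the subunits' summed CPM at M0 to 5.01 to 6.78% at 8 h and 5.72 to 6.50% at 12 h. It was called higher in each genotype, by 1.61 ± 0.13 in wt and 1.38 ± 0.13 in Treml4-/- cells at 8 h, and the difference of 0.22 had a 95% interval from -0.18 to 0.63.

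**Figure D3:**
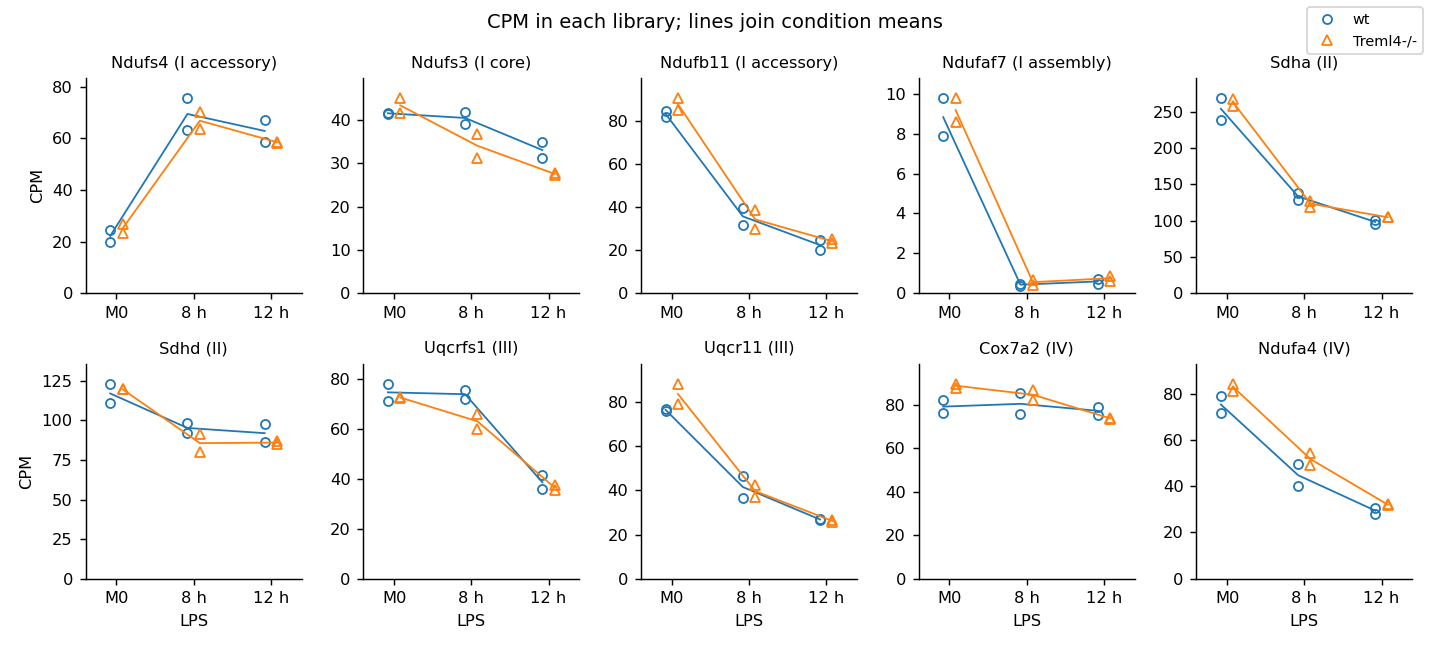
CPM (y axes, from 0) of 10 members in each library at M0, 8 h and 12 h of LPS (x axis), with circles for wt, triangles for Treml4-/- and lines joining the means of 2 libraries. Ndufs4 is higher in every LPS library than at M0, Ndufaf7 is at 0.875 CPM or less in every LPS library, Uqcrfs1 is near its M0 level at 8 h and lower at 12 h, and Cox7a2 stays between 73.4 and 89.7 CPM throughout, which with the median of ratios scaling is a log2 rise of 0.77 at 8 h.

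Assembly factors of complex I named Ndufaf are enzymes and chaperones that are not part of the finished complex. Of 7, 6 were called lower at 8 h and 7 at 12 h, against 59.8% and 60.3% of all genes. Their medians were -0.90 and -1.09, and the median of ratios scaling called 2 and 4 lower with 1 higher at 8 h. Ndufaf7, a methyltransferase, lies on chr17:78937136-78948052 (plus strand). It had 7.87 to 9.80 CPM at M0, 0.384 to 0.684 CPM at 8 h and 0.441 to 0.875 CPM at 12 h. The log2 fold change of -2.75 ± 0.11 at 8 h and -2.59 ± 0.11 at 12 h (limma, adjusted p = 3.6e-10 and 5.7e-10) was the lowest of the 69, and stayed called under all 3 scalings (-2.18 and -1.98 with the median of ratios, -1.95 and -1.72 with quantile normalization). Ndufaf4 was also under 1 CPM in every LPS library, at -1.41 ± 0.10 and -1.56 ± 0.10. Ndufaf7 and Ndufaf4 passed the limit of 1 CPM through M0 libraries alone, so a lower value was the only outcome open to them. Ndufaf2, a chaperone of late assembly, had 5.00 to 5.52 CPM at M0, 1.97 to 2.68 CPM at 8 h and 0.921 to 1.23 CPM at 12 h, and it overlaps Smim15 on the other strand (mean 16.9 CPM). Ndufaf3, with the most CPM per kb in the group, was at -1.11 ± 0.08 and -0.88 ± 0.08, and its 12 h value turned to 0.10 with quantile normalization. It overlaps Impdh2 on the other strand (mean 53.9 CPM), and without strand in the counting the reads of such pairs cannot be told apart.

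Complex II oxidizes succinate, with Sdha and Sdhb forming the catalytic head and Sdhc and Sdhd the membrane anchor. Sdha had 239 to 269 CPM at M0, 119 to 139 CPM at 8 h and 95.9 to 105 CPM at 12 h, with no overlap between times, and a log2 fold change of -1.005 ± 0.060 and -1.34 ± 0.06 (limma, adjusted p = 1.4e-08 and 1.2e-09). Sdhb, the iron-sulfur subunit, had 147 to 165 CPM at M0, 62.0 to 77.4 CPM at 8 h and 83.0 to 85.0 CPM at 12 h. It was thus lowest at 8 h, and its difference of 0.25 ± 0.07 between 12 and 8 h had an adjusted p of 0.012 in limma at a fold below 1.4. Sdhc was at -0.75 ± 0.07 and -1.05 ± 0.07, the first of which turned to 0.043 with the median of ratios scaling. Sdhd had 111 to 123 CPM at M0, 79.7 to 98.2 CPM at 8 h and 84.7 to 97.5 CPM at 12 h, a log2 fold change of -0.39 ± 0.07 and -0.41 ± 0.07 that was below the fold limit and became 0.40 and 0.43 with the median of ratios scaling. Within a library, Sdhd over Sdha in CPM per kb was 1.05 to 1.09 at M0, 1.57 to 1.69 at 8 h and 1.90 to 2.29 at 12 h, with no overlap between times. Among all 4 genes the anchor and head did not part in 1 way, since at 12 h Sdhc of the anchor was lower (-1.05) than Sdhb of the head (-0.88).

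Complex III passes electrons from ubiquinol to cytochrome c. Of its 8 genes, 6 were called lower at 8 h and 7 at 12 h, against 59.8% and 60.3% of all genes. Their medians were -0.62 and -0.95, and the median of ratios scaling called 2 higher at 8 h and 1 lower at 12 h. Uqcr11, a small subunit of the complex, had 75.9 to 88.3 CPM at M0, 36.6 to 46.5 CPM at 8 h and 25.8 to 27.2 CPM at 12 h, and was at -0.97 ± 0.08 and -1.56 ± 0.08 (limma, adjusted p = 4.0e-07 and 5.5e-09). Uqcrc1, a large core protein, was at -0.87 ± 0.08 and -1.31 ± 0.08, and Uqcrh, the hinge protein with the most CPM per kb here, at -0.58 ± 0.08, which turned to 0.21 with the median of ratios scaling, and -0.88 ± 0.08. Uqcrfs1, the Rieske iron-sulfur subunit, behaved differently in time. It had 71.0 to 78.0 CPM at M0, 59.9 to 75.6 CPM at 8 h and 35.5 to 41.3 CPM at 12 h, so the 8 h range overlapped that of M0 and the 12 h range did not. Its log2 fold change was -0.11 ± 0.07 at 8 h (adjusted p = 0.15 in limma) and -0.96 ± 0.07 at 12 h, and the median of ratios scaling gave 0.68 and -0.12.

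Complex IV reduces oxygen to water, and several of its subunits have a general form and a form of certain tissues. Of 14 tested genes, 7 were called lower at 8 h and 11 at 12 h and none higher, against 59.8% and 60.3% of all genes called lower. Their medians were -0.50 and -0.73. Against the median of all genes these medians were 0.22 higher at 8 h and 0.028 higher at 12 h, and the median of ratios scaling called 3 higher and none lower at 8 h and 2 of each at 12 h. The general forms were the abundant ones per length. Cox4i1 had a mean of 578 CPM per kb at M0, 363 at 8 h and 306 at 12 h, and Cox6b1 565, 413 and 339 CPM per kb, while Cox6a1 and Cox8a had 290 and 224 CPM per kb at M0. Of the tissue forms, Cox4i2 had 0.059 to 0.244 CPM and Cox6a2 0.149 to 0.856 CPM over all libraries, and Cox8b had no read in any of the 12 libraries, which allows up to 3 reads or 0.0625 CPM in 1 library. Cox6b2 had 0.973 to 1.397 CPM at M0 and 0.576 CPM or less in every LPS library. Cox7a1, the heart and muscle form, had 2.34 to 3.48 CPM at M0, 1.5003 to 1.78 CPM at 8 h and 1.04 to 1.35 CPM at 12 h.

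Cox7a2, the general form of the same subunit, hardly moved in CPM. It had 82.1, 76.2, 89.7 and 87.8 CPM at M0, 85.2, 75.6, 86.8 and 82.3 CPM at 8 h and 75.4, 79.0, 74.0 and 73.4 CPM at 12 h (wt replicates 1 and 2, then Treml4-/- replicates 1 and 2), and the ranges overlapped. The log2 fold change was -0.024 ± 0.060 and -0.15 ± 0.06 on the CPM scale and 0.77 and 0.69 with the median of ratios scaling. Cox7b was at -0.0035 ± 0.074 and -0.26 ± 0.07, and 0.78 and 0.58 with the median of ratios. Cox7a2 over Cox4i1 in CPM per kb was 0.196 to 0.238 at M0, 0.306 to 0.401 at 8 h and 0.363 to 0.385 at 12 h, with every LPS library above every M0 library. Cox6a1 and Cox8a, at -0.53 ± 0.07 and -0.54 ± 0.08 at 8 h, were no longer called without wt M1-8h replicate 2 (-0.46 and -0.47), and Cox8a at 12 h (-0.55 ± 0.08) was not called without Treml4-/- M1-12h replicate 1 (-0.48). With the median of ratios scaling Cox6a1 was at 0.27 and 0.12 and Cox8a at 0.25 and 0.30. Cox7a2l was at -0.75 ± 0.06 and -1.04 ± 0.06, and the 8 h value turned to 0.043 with that scaling.

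Ndufa4 had 71.7 to 84.3 CPM at M0, 40.0 to 54.3 CPM at 8 h and 28.0 to 32.4 CPM at 12 h, without overlap, and a log2 fold change of -0.71 ± 0.08 and -1.33 ± 0.08 (limma, adjusted p = 3.9e-06 and 1.2e-08). At 8 h the value turned to 0.080 with the median of ratios scaling, while at 12 h it was called lower under all 3 scalings. Its paralog Ndufa4l2, known for its induction in hypoxia, had at most 0.060 CPM. AA467197, the mouse gene of a small mitochondrial protein related to Ndufa4 and outside the symbol rule, had 0.87 and 0.63 CPM in wt and 0.98 and 1.03 CPM in Treml4-/- cells at M0. It had 203 to 263 CPM at 8 h and 203 to 255 CPM at 12 h, a log2 fold change of 6.95 ± 0.08 and 6.92 ± 0.08 (limma, adjusted p = 2.8e-14 and 2.7e-14). AA467197 passed the limit of 1 CPM through its LPS libraries, so a higher value was the only outcome open to it. Per kb of transcript, AA467197 over Ndufa4 was 0.0053 to 0.0076 at M0, 2.49 to 3.96 at 8 h and 3.78 to 5.33 at 12 h, so the order of these related transcripts was the reverse of that at M0 in all 8 LPS libraries.

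Between 8 and 12 h the all-gene median was only -0.06, so this comparison depended little on the scaling. The M0 libraries do not enter it. Of 69 members, 9 were called lower and 0 higher, against 18.7% of all genes called lower and 13.5% called higher. With the adjusted p alone 46 were lower, against 34.2% of all genes, and 3 higher, against 26.1%. The median of the members was -0.27, 57 of the 69 were below the all-gene median, and the median of ratios scaling also gave 9 lower and 0 higher with a median of -0.23. The largest difference was that of Uqcrfs1 at -0.85 ± 0.07 (limma, adjusted p = 1.5e-06), followed by Ndufa12 at -0.75 ± 0.11, Ndufaf2 at -0.71 ± 0.09 and Ndufa4 at -0.63 ± 0.08. Uqcr11, Ndufb4, Ndufb11, Ndufb2 and Ndufaf5 were the other 5. Under all 3 scalings 7 remained called, all but Ndufb11 and Ndufaf5, against 15.2% of all genes. Ndufb2 overlaps Braf on the other strand (mean 32.1 CPM), and reads of the pair cannot be told apart without strand in the counting. All 8 complex III genes were lower by the adjusted p alone, as were 11 of 14 of complex IV, 4 of 7 core and 17 of 29 accessory complex I genes.

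**Figure D4:**
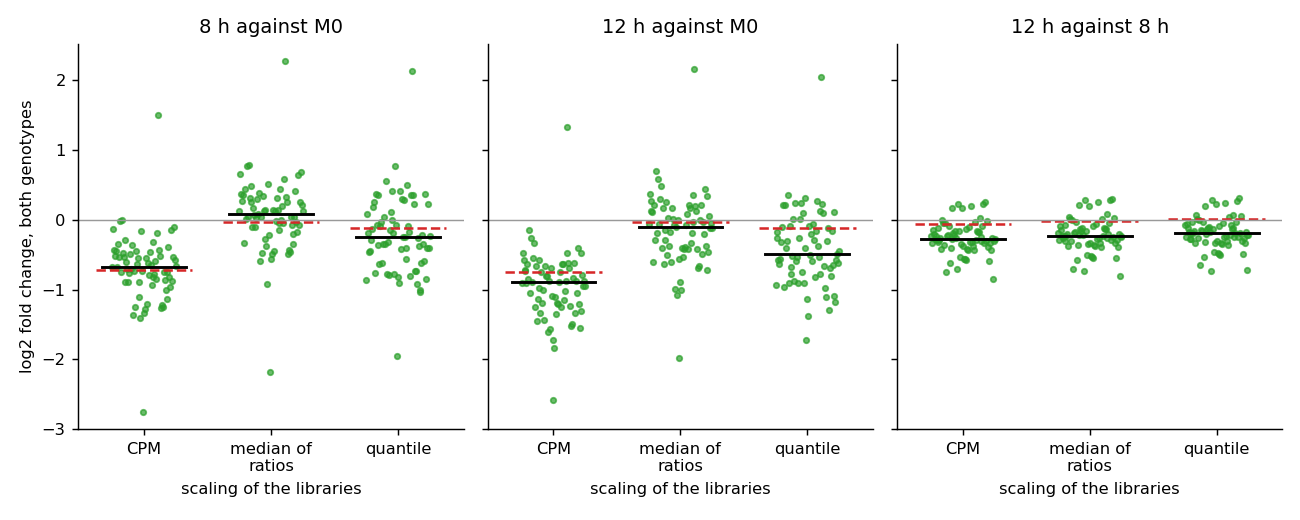
Log2 fold change (y axis, mean over genotypes) of the 69 tested members for 8 h against M0, 12 h against M0 and 12 h against 8 h under CPM, median of ratios and quantile scaling (x axis). Points are genes, black bars their median and red dashed bars the median of all genes tested. The members' median at 8 h is -0.67 with CPM, 0.080 with the median of ratios and -0.25 with quantile normalization, while for 12 h against 8 h it is -0.27, -0.23 and -0.19.

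Under all 3 scalings, 1 member was called higher at 8 h and at 12 h, Ndufs4, against 16.9% and 16.1% of all genes. The 6 called lower at 8 h were Ndufa6, Ndufb10, Ndufb11, Ndufs7, Ndufaf4 and Ndufaf7, against 28.2% of all genes. They are all complex I genes, as are most of the 69 tested (7 core, 29 accessory and 7 assembly genes). At 12 h 14 were called lower under all 3, against 28.9% of all genes: the complex I genes Ndufa8, Ndufa12, Ndufb3, Ndufb10, Ndufb11, Ndufs8, Ndufv1, Ndufaf2, Ndufaf4 and Ndufaf7, with Sdha, Uqcr11, Ndufa4 and Cox6b2. As a share of the 69 members both counts were below that of all genes. Ndufaf4, Ndufaf7 and Cox6b2 entered the test through their M0 level alone, so they could only come out lower.

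Genotype was compared next, since the study asked what Treml4 does in these macrophages. No member was called between wt and Treml4-/- cells before LPS, at M1-8h or at M1-12h. Of all genes this fit called 0.0993%, 0.091% and 0.132%, so few were to be found among 69. With another method at the same limits, the study reported more genes between genotypes after LPS. By the unadjusted p in limma 2, 8 and 2 of the 69 were under 0.05 (2.90%, 11.6% and 2.90%, against 3.35%, 21.0% and 7.55% of all genes), and voom on the recovered reads also called 0. The median wt minus Treml4-/- log2 difference of the members was -0.078 before LPS, 0.010 after 8 h and 0.0063 after 12 h, beside -0.03, -0.07 and -0.05 for all genes. The 95% interval lay within a 1.4-fold difference for 64, 60 and 65 members, and reached from -0.77 to 0.53 at its widest, at M1-8h.

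The members with the lowest p are given for their values. At M0 and M1-12h this was Sdhc, with 128 and 129 CPM in wt against 160 and 148 CPM in Treml4-/- cells at M0 and 62.4 and 59.2 against 73.0 and 75.4 CPM at M1-12h, differences of -0.26 ± 0.10 and -0.28 ± 0.10 (limma, adjusted p = 1.0 and 0.46). At M1-8h, where the genotypes' libraries overlapped for Sdhc, the difference was -0.11 ± 0.10. At M1-8h the lowest p was that of Cox7a2l, with 144 and 156 CPM in wt and 124 and 113 CPM in Treml4-/- cells (0.34 ± 0.09, limma adjusted p = 0.15). Ndufa5 had 10.3 and 8.26 CPM in wt and 12.2 and 14.03 CPM in Treml4-/- cells (-0.46 ± 0.14, adjusted p = 0.16), and Ndufb3 11.4 and 10.2 against 13.1 and 12.8 CPM (-0.25 ± 0.10, adjusted p = 0.21). None of these differences passed the adjusted threshold. The genes were picked for their low p, so a separation of their libraries by genotype follows from that choice.

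**Figure D5:**
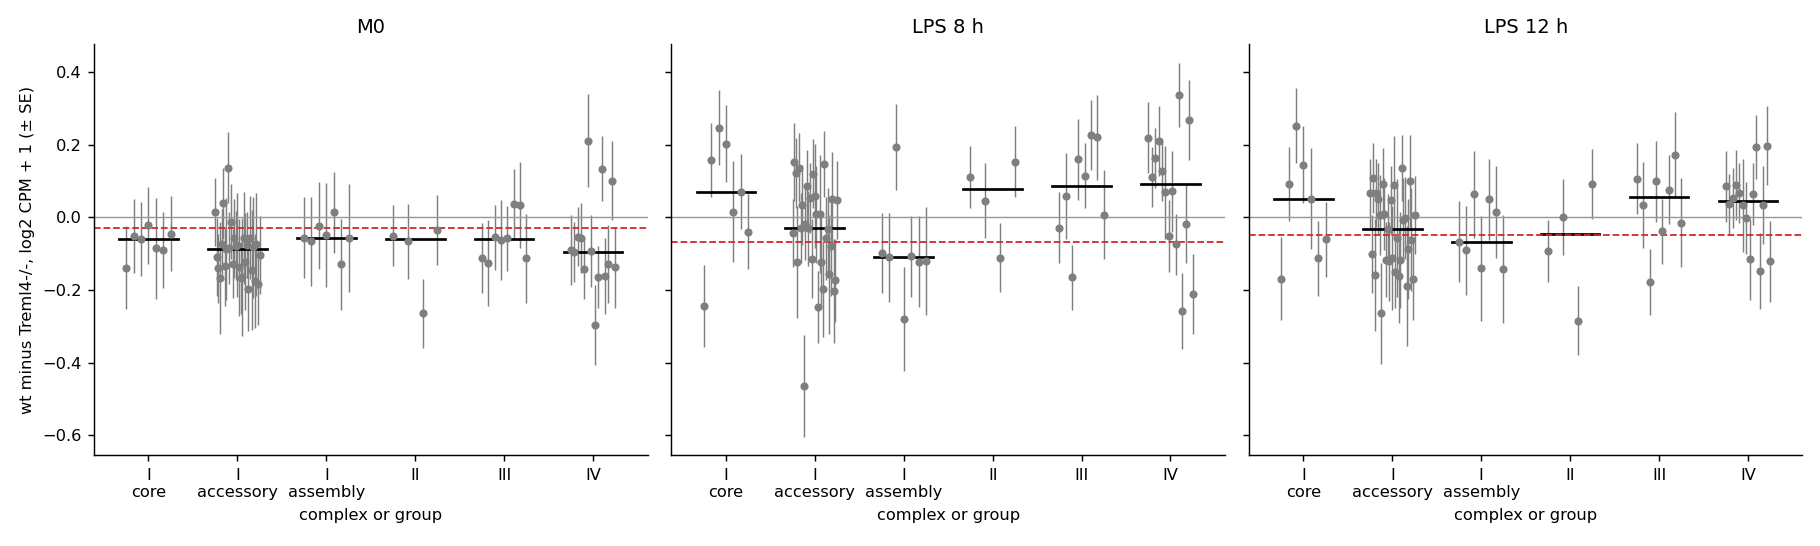
The wt minus Treml4-/- difference in log2 CPM + 1 (y axis, points with SE) for the 69 tested members by complex or group (x axis) at M0, LPS 8 h and LPS 12 h. Black bars are group medians and the red dashed line the median of all genes tested; the differences span -0.46 to 0.34 at 8 h and no member was called at any time.

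The LPS response was then compared between genotypes. No member was called at 8 h or 12 h, against 0.00827% of all genes at each, and 3 and 0 of the 69 had an unadjusted p under 0.05 in limma, against 6.67% and 3.82% of all genes. The difference of the responses, wt minus Treml4-/-, had a median of 0.13 over the members at 8 h and 0.067 at 12 h, beside -0.04 and -0.02 over all genes, and once GC content and length of transcripts were corrected for, the members' median at 8 h was 0.062. Cox7a1 (0.37 ± 0.16), Cox6b1 (0.27 ± 0.12) and Cox4i1 (0.31 ± 0.14) had the lowest p at 8 h, all with an adjusted p of 0.73 in limma, and Ndufs3 (0.31 ± 0.15), Cox7a2 (0.23 ± 0.12) and Ndufa11 (0.25 ± 0.14) at 12 h, with an adjusted p of 1.0. Over the 69 members the 95% intervals reached from -0.81 to 0.71 at 8 h and from -0.61 to 0.68 at 12 h, so differences of more than 1.4-fold in the response were within the intervals of some.

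Other genes of the same pathway gave a wider view of the LPS response. Their counts stand beside 59.8% of all genes called lower and 17.1% higher at 8 h, and 60.3% and 16.3% at 12 h. Of 18 ATP synthase genes, 8 were called lower at 8 h and 15 at 12 h and none higher, with medians of -0.47 and -0.96, while the median of ratios scaling called 1 lower and 5 higher at 8 h and 2 of each at 12 h. Atp5g2, a form of the membrane ring subunit, had the lowest value, -1.42 ± 0.07 and -2.12 ± 0.07, and Atpif1, the inhibitor of the enzyme, went from 144 to 164 CPM at M0 to 39.0 to 47.1 CPM at 12 h. Of 15 genes listed with the tricarboxylic acid cycle, 11 were called lower at 8 h and 13 at 12 h, with medians of -0.86 and -1.10, beside 4 and 6 lower and 2 and 1 higher with the median of ratios scaling. Fh1 (fumarase) was at -2.15 ± 0.09 and -2.68 ± 0.09 and Idh2 at -1.60 ± 0.25 and -3.95 ± 0.25. The 1 gene called higher was Irg1, which diverts cis-aconitate to itaconate, an inhibitor of complex II, and is not a step of the cycle (7.19 ± 0.07 and 7.20 ± 0.07).

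Electron carriers and other chain parts outside the symbol rule were 10 genes, of which 3 were called higher and 5 lower at each time, or 4 and 2 with the median of ratios scaling. For these and the assembly factors, the shares of all genes called higher and lower were 17.1% and 59.8% at 8 h and 16.3% and 60.3% at 12 h. Cycs, cytochrome c itself, had 27.6 to 37.5 CPM at M0, 94.7 to 113 CPM at 8 h and 86.5 to 92.9 CPM at 12 h (1.71 ± 0.06 and 1.498 ± 0.064; limma, adjusted p = 2.9e-10 and 8.0e-10), while Cyc1, the cytochrome of complex III that passes electrons to it, was at -0.67 ± 0.07 and -0.98 ± 0.07, the first of which turned to 0.12 with the median of ratios scaling. Gpd2, which feeds electrons from glycerol 3-phosphate to ubiquinone, rose by 3.46 ± 0.08 and 2.75 ± 0.08. AA467197, which could only come out higher, was the third gene called higher. Dhodh and Etfdh, which also feed ubiquinone, were at -1.84 ± 0.09 and -1.23 ± 0.09 at 8 h. Of 28 tested assembly factors of complexes III and IV, 4 were called higher and 19 lower at 8 h and 3 and 20 at 12 h, or 7 and 9 and then 8 and 11 with the median of ratios scaling. Sco1, a copper chaperone of complex IV, had 6.43 to 7.88 CPM at M0 and 97.5 to 112 CPM at 8 h (3.71 ± 0.07), and Coa5 rose by 1.64 ± 0.07. Cmc2 and Bcs1l, the latter needed to insert Uqcrfs1, were at -2.11 ± 0.13 and -1.98 ± 0.09. Of 9 further assembly factors of complex I, 9 were called lower at 8 h and 8 at 12 h, led by Ecsit (-2.14 ± 0.09 and -1.98 ± 0.09), and of 4 of complex II, 3 at each time, led by Sdhaf1 (-1.68 ± 0.10 and -1.88 ± 0.10). The median of ratios scaling called 3 and 4 of the former lower and none higher, and 2 of the latter lower and 1 higher at each time. Sdhaf1 and Acn9 of complex II, and Sco2 among the complex III and IV factors, passed the limit of 1 CPM through their M0 level. These genes could only come out lower.

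Regulators of mitochondrial biogenesis moved both ways. Of 14 tested, 2 were called higher and 8 lower at 8 h and 1 and 10 at 12 h, or 4 and 5 and then 3 and 6 with the median of ratios scaling. On the CPM scale 17.1% of all genes were called higher and 59.8% lower at 8 h, and 16.3% and 60.3% at 12 h. Hif1a rose by 3.41 ± 0.15 and 2.85 ± 0.15. Ppargc1b, a coactivator of respiratory genes, was called higher at 8 h (0.81 ± 0.09) and was at -0.20 ± 0.09 at 12 h, or 0.40 with the median of ratios scaling. Pprc1, a related coactivator, was at -2.03 ± 0.16 and -3.34 ± 0.16, Myc at -2.71 ± 0.12 and -3.13 ± 0.12, and Polrmt, the mitochondrial RNA polymerase, at -2.27 ± 0.08 and -2.44 ± 0.08. Myc had 0.626 CPM or less in every LPS library and passed the limit of 1 CPM through M0 alone, so it could only come out lower. In all of these lists no gene was called between genotypes at any time.

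Of the 13 subunits encoded by mitochondrial DNA, 12 were tested. At 8 h 2 were called higher, mt-Nd6 (1.21 ± 0.16) and mt-Atp6 (0.62 ± 0.23), and 0 lower, with a median of 0.17 beside -0.72 for all genes, and at 12 h 0 were called higher and 3 lower with a median of -0.18. Over all genes 17.1% were called higher and 59.8% lower at 8 h, and 16.3% and 60.3% at 12 h. The mt-Atp6 call was lost without Treml4-/- M1-8h replicate 2 (0.39), the highest of the 12 libraries for this gene, and without wt M1-8h replicate 1 (0.43), wt M0 replicate 2 (0.55) or Treml4-/- M0 replicate 1 (0.55), and that of mt-Nd6 at 12 h (-0.60) without wt M0 replicate 1 (-0.42). With the median of ratios scaling all 12 were called higher at 8 h and 8 at 12 h. All mitochondrially encoded genes together took 0.517% and 0.654% of reads in wt and 0.811% and 1.11% in Treml4-/- cells at M1-8h, the last library being the highest of the 12, and the median wt minus Treml4-/- difference of the 12 subunits there was -0.72, with none called. These genes have near-identical nuclear copies with which reads could be shared, their levels ran from 0.168 CPM for mt-Atp8 to 6159 CPM for mt-Co1, and libraries were selected for poly(A), so their values are uncertain.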

How the data were processed

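RNA was sequenced from 12 BMDM libraries (poly(A) selected, stranded, paired reads) and counted on genes; per the labels the reads were aligned to mm10. The authors deposited 1 table of log2 CPM per gene and library, computed with a prior of 0.25 reads. Whole reads were recovered from it for 100% of values (within 0.01 reads) and converted to CPM. The design had assumed CPM, and the log2 values were converted for it. The authors' gene lists were not used. The 12086 genes that reached 1 CPM in 2 or more libraries were fitted on log2(CPM + 1) with limma 3.58.1 (R 4.3.3, trended prior variance) as 6 condition means, with Benjamini-Hochberg adjustment over all of them and a fold limit of 1.4. Contrasts were LPS against M0 as the mean over genotypes, 12 h against 8 h, wt minus Treml4-/- at each time and the difference of the LPS responses. Both LPS comparisons share the M0 libraries. The fit was tested on simulated data.

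The members and lists were chosen with earlier results of these data known. Of 47 members named by values, 36 followed a rule (complex II, the largest called changes in each group, the lowest p in each genotype comparison, isoform pairs and the highest level per kb) and 11 were named after their values were seen. The values of 1 named member are not reported here. Replicate numbers were checked for pairing between genotypes at each time by the correlation of deviations, which was -0.26 at M0, 0.30 at 8 h and 0.06 at 12 h, and between times within a genotype, where it ran from 0.06 to 0.41 in wt and from -0.27 to 0.46 in Treml4-/- cells, so they were not taken as pairs. Alternatives were other scalings, pseudocounts, filters and fold limits, voom on recovered reads, a GC content and length correction, a replicate block and leaving out each library. Replicates of every condition differed by more than sampling noise. Intervals cover the spread between libraries, and limits from 0 reads cover counting error only.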

Additional observations from a re-analysis of the deposited data

How the results depend on the processing

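Scaling moved the LPS results most. With the median of ratios 8 members were called higher and 6 lower at 8 h and 4 and 15 at 12 h, and with quantile normalization 4 and 20 at 8 h and 35 lower at 12 h. At least 28.2% and 28.9% of all genes were called lower at 8 and 12 h with each scaling, and at least 16.9% and 16.1% higher. Without a minimum fold, 3 were higher and 46 lower at 12 h against 8 h. Summed levels as a percent of M0 at 8 and 12 h were 103 and 92.3 for complex I subunits, 96.5 and 91.4 for complex II, 113 and 87.3 for complex III and 124 and 108 for complex IV with the median of ratios. With quantile normalization they were 79.7 and 72.4 for complex I, 58.3 and 56.6 for complex II, 75.8 and 60.2 for complex III and 74.9 and 67.5 for complex IV. Leaving out 1 library gave 46 to 54 lower and 1 to 1 higher at 8 h, 61 to 63 lower at 12 h, 6 to 13 lower between 8 and 12 h, and 0 for genotype. The fit with the replicate block gave 49 lower at 8 h, 61 at 12 h and 9 at 12 h against 8 h and changed no call. A block with the replicate numbers crossed in Treml4-/- M0, chosen after seeing the data, called 0 members between genotypes. Over all 69 members, 27 at 8 h and 41 at 12 h were negative under all 3 scalings, for which the share of all genes is not reported here. By the adjusted p alone 13 and 28 were lower under all 3, against 38.5% and 38.9% of all genes. The lists that follow cover only the members named by values, and other members turned too. Direction turned positive with the median of ratios at 8 h for Sdhc 0.043, Sdhd 0.40, Ndufa4 0.080, Cox7a2l 0.043, Cox7a1 0.011, Cox7a2 0.77, Ndufa5 0.38, Ndufs3 0.59, Cox6b1 0.35, Cox4i1 0.12, Ndufa11 0.17, Cox6a1 0.27, Cox8a 0.25, Ndufa3 0.29, Uqcrh 0.21, Cox7b 0.78, Cox5a 0.65, Uqcrb 0.64, Uqcrfs1 0.68, Ndufaf5 0.51, Ndufa1 0.48, Ndufa12 0.066, Ndufb2 0.13 and Ndufb4 0.12. At 12 h it did so for Sdhd 0.43, Cox7a2 0.69, Ndufa5 0.022, Ndufs3 0.35, Cox6b1 0.12, Ndufa11 0.17, Cox6a1 0.12, Cox8a 0.30, Ndufa3 0.25, Cox7b 0.58, Cox5a 0.37, Uqcrb 0.35 and Ndufa1 0.49. Quantile normalization did so at 8 h for Cox7a1 0.18, Cox7a2 0.25, Ndufa5 0.56, Ndufs3 0.35, Ndufa3 0.045, Cox7b 0.36, Cox5a 0.074, Uqcrb 0.37, Uqcrfs1 0.23, Ndufaf5 0.77, Ndufa1 0.36, Ndufb2 0.41 and Ndufb4 0.29, and at 12 h for Cox7a2 0.21, Ndufa5 0.23, Ndufs3 0.13, Ndufa3 0.011, Ndufaf3 0.099, Cox7b 0.20, Uqcrb 0.10, Ndufaf5 0.31 and Ndufa1 0.36. Leaving out 1 library gave 8 h values of -0.066 to 0.019 for Cox7a2 and -0.069 to 0.062 for Cox7b, which turned without wt M0 replicate 1 (Cox7a2 0.0028, Cox7b 0.030), wt M1-8h replicate 2 (Cox7a2 0.019, Cox7b 0.028), Treml4-/- M0 replicate 2 (Cox7b 0.0043) and Treml4-/- M1-8h replicate 1 (Cox7b 0.062). At 8 h Ndufb2 (-0.46) and Ndufb4 (-0.48) were not called without Treml4-/- M1-8h replicate 2. The cause was not tested. Ndufs4 was called higher at both times under the 3 scalings.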
